A study of Mus musculus with 27 samples.

Results

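The genes described here are 39 listed components of synaptic vesicles and of the SNARE machinery that fuses them: synaptotagmins, SNAREs with NSF and its adaptor, synapsins, SV2 proteins, vesicle tetraspans, priming and active zone proteins, Rab3 proteins with their effector, and endocytic proteins. They were chosen by gene symbol, with 1 probe set per gene, out of 19301 genes on the array. Of the 39, 38 had a probe set of their own, and 35 passed the filter on dim genes and were tested. Vamp2 was not used because its probe set also carries Ubr3. Syt7, Syt10 and Amph were measured but lay under the filter, which asks for at least 3 arrays above 2.83, the median of all deposited values. The list was set by gene symbol, but with earlier results of these data known.

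Expression was measured on 27 arrays, each made from 200 sorted cells of adult mouse retina, in 9 groups of 3. The pure cone group held 200 cone photoreceptors of the line Tg(Chrnb4-EGFP)1Gsat, in which EGFP marks the cells. The Arc group held amacrine cells of the line Tg(Arc-EGFP)194Gsat/Mmcd, which the study included as a control for array batches. The pure starburst group held 200 starburst amacrine cells, which are cholinergic interneurons, from the cross of 129S6-Chat_tm1(cre)Lowl/J mice with the reporter Rosa26-LSL-RFP, in which Cre at the Chat locus switches on RFP. Between the pure ends, a titration held 50, 100 and 150 cone cells with starburst cells up to 200, and mixtures labelled X held 75, 157 or 183 cone cells with 125, 43 or 17 starburst cells. All groups share the labelled background, a mix of C57BL/6J and FVB/N-Swiss Webster hybrid. Per the labels, mice from one resource centre derive from hybrids with a recessive mutation that causes photoreceptor degeneration, and were crossed back before use. For each titration series the study pooled 2 retinas of the cone line with 6 of the starburst line, and repeated this 3 times with other mice. Cell type, mouse line and reporter change together, so they cannot be told apart, and for the Arc group a batch cannot be told apart from them either.

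Conventional synapses of amacrine cells release vesicles when calcium enters the terminal, whereas photoreceptors release continuously in the dark from vesicles tethered to a synaptic ribbon. At conventional synapses a vesicle is docked and primed by Munc13 and RIM proteins. In both, it is fused by a complex of SNAREs on vesicle and plasma membrane, triggered by synaptotagmin, and retrieved by endocytosis. Ribbon synapses are known to use some family members that differ from those of conventional synapses, such as syntaxin 3 and complexins 3 and 4.

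The labels were checked against cell type markers. The mean log2 level of 10 cone markers was 9.04, 9.03 and 7.61 on the cone arrays, 3.83, 2.93 and 3.04 on the Arc arrays and 3.63, 4.26 and 3.13 on the starburst arrays. The mean of 7 starburst markers was 3.04, 2.92 and 3.18 on the cone arrays, 2.85, 2.54 and 2.88 on the Arc arrays and 6.50, 6.39 and 6.68 on the starburst arrays. Rod markers were readable everywhere: 10 of them averaged 6.70, 6.53 and 8.0 on the cone arrays, 5.15, 5.0 and 5.39 on the Arc arrays and 5.70, 6.38 and 5.65 on the starburst arrays. The third cone array thus stood apart, with lower cone and higher rod markers. Cone markers were also lower on the third arrays of the titration mixture with 150 cones and of the 3 X mixtures. The mean of the rod markers was highest on the third array of each of these mixtures, but in the mixture with 75 cones by little (5.72, beside 5.47 and 5.58). Counts between groups are therefore also given without the third array of every group. Of the further marker lists, 9 amacrine markers averaged 3.65, 3.49 and 3.97 on the cone arrays, 5.68, 5.58 and 5.58 on the Arc arrays and 5.68, 5.58 and 5.49 on the starburst arrays. Bipolar markers, 8 measured, averaged 3.91, 3.91 and 4.53 on the cone arrays, 2.79, 2.96 and 2.98 on the Arc arrays and 2.98, 3.85 and 2.96 on the starburst arrays. The part of rod or bipolar RNA in the differences below was not tested. In bulk samples such as these, fewer cells of a type and less RNA per cell cannot be told apart.

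Differences are on the log2 scale with the standard error (SE) of a limma fit to all 27 arrays, n = 3 arrays per group. A gene was called when its Benjamini-Hochberg adjusted p over 12441 genes was under 0.05 and its log2 difference at least 1 in size. Levels of different genes come from different probe sets and were not set against each other.

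Cones were first compared with starburst cells. Of the 35 tested members, 5 were lower in cones (Snap25, Syt4, Syt11, Syngr3 and Unc13a) and none was higher, while 8.42% of all tested genes were called, 2.64% higher and 5.79% lower. The members' median log2 difference was -0.19, against -0.04 over all tested genes. The other 30 members lay between -0.84 and 0.98. Of these, 6 had an adjusted p under 0.05 without reaching the minimum difference: Dnm1, Rab3a, Rims1 and Sv2a with lower values in cones, and Sv2b and Unc13b with higher ones. On adjusted p alone 11 members passed, beside 14.1% of all tested genes. Over the 38 measured members, the cone arrays lay wholly below the starburst arrays for 13 genes and wholly above for 2, and the groups overlapped for 23. This count was not made over all measured genes, so how usual such separation is on these arrays cannot be said. Without the third array of every group, 6 members were called. Here and below, counts with arrays left out are given without the share of all tested genes and describe the members only.

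Against Arc cells more members were called. In cones 14 of 35 were lower and 1, Sv2b, was higher, while 10.3% of all tested genes were called, 2.51% higher and 7.83% lower. The median log2 difference of the members was -0.74, against -0.07 over all tested genes. The 14 were the 5 genes above together with 9 that were not called against starburst cells: Syt5, Syt12, Sv2a, Syngr1, Unc13c, Rab3a, Rab3c, Dnm1 and Dnm3. Of the called genes, Sv2b passed the filter only through groups that hold cones, and Unc13c through the Arc group, so each passed where it is high. The cone arrays lay wholly below the Arc arrays for 23 of the 38 measured genes and wholly above for 3. Here too the count over all measured genes was not made. Without the third arrays, 14 members were called. Arc cells set against starburst cells had 5 members higher (Syngr1, Unc13c, Syt5, Syt12 and Dnm3) and none lower, at 3.55% of all tested genes called, 2.16% higher and 1.39% lower. Without the third arrays, 6 were called, with neither Syt5 nor Syt12 among them. These 3 comparisons share their groups in pairs, so their values are given side by side and not as support for each other. In all, 15 members were called in at least 1 of them and 20 in none.

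**Figure D1:**
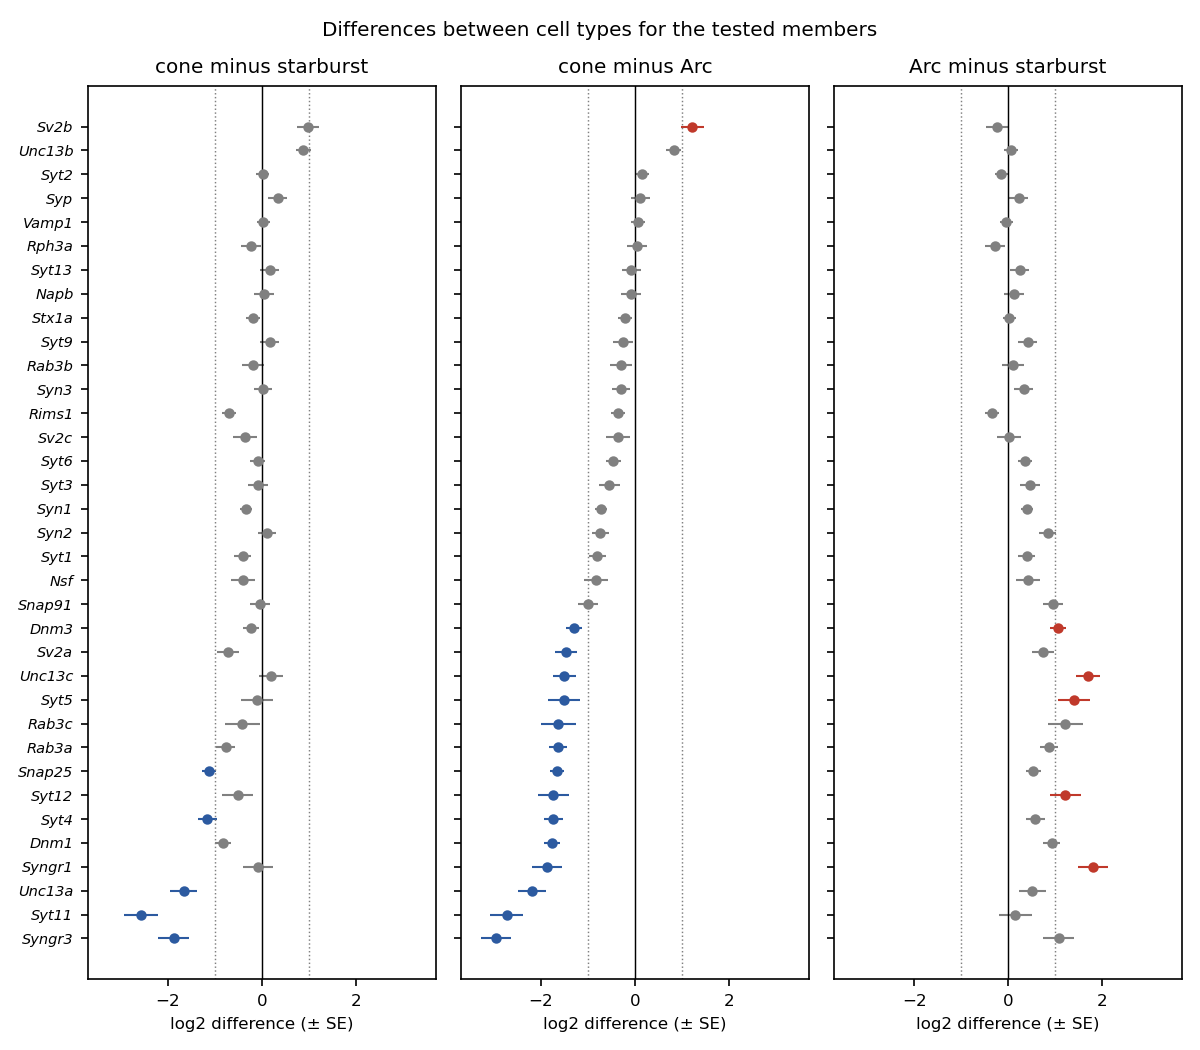
Log2 differences (horizontal axis, points with bars of ± 1 SE from limma) for the 35 tested members, sorted by the difference between cones and Arc cells. Red marks a gene called higher, blue one called lower and grey one not called, and dotted lines mark a difference of 1 either way. The middle panel holds 14 blue points and 1 red, the left panel 5 blue and the right panel 5 red.

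Synaptotagmins are vesicle proteins with paired C2 domains, of which Syt1 is the calcium sensor of fast release. Syt1 was not called in any comparison of cell types. It had log2 levels of 7.12, 6.79 and 6.78 in cones, 7.83, 7.79 and 7.48 in Arc cells and 7.31, 7.36 and 7.24 in starburst cells, so the cone arrays were lowest but by less than the minimum difference. Its difference between cones and Arc cells was -0.80 (limma adjusted p = 0.00292), and that between cones and starburst cells was -0.41 (adjusted p = 0.151).

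Syt11 and Syt4 are synaptotagmins whose first C2 domain does not bind calcium. Syt11 stood at 4.14, 3.45 and 4.16 in cones, 6.69, 6.24 and 7.02 in Arc cells and 6.49, 6.42 and 6.57 in starburst cells. All cone arrays were below all amacrine arrays, with a log2 difference of -2.58 ± 0.35 against starburst cells (adjusted p = 2.26e-05) and -2.73 ± 0.35 against Arc cells (adjusted p = 7.18e-06). Syt4 stood at 3.42, 3.08 and 3.88 in cones, 5.37, 5.23 and 5.01 in Arc cells and 4.41, 4.82 and 4.65 in starburst cells. The groups did not overlap. Its log2 difference was -1.17 ± 0.20 against starburst cells (adjusted p = 0.00031) and -1.74 ± 0.20 against Arc cells (adjusted p = 1.93e-06). The call against starburst cells was lost without the second cone array, where the difference was -0.98.

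Syt5 and Syt12 were higher in Arc cells than in both other groups. Syt5 had 3.87, 2.92 and 2.95 in cones, 5.27, 4.38 and 4.62 in Arc cells and 3.81, 3.30 and 2.95 in starburst cells. Syt12 had 2.48, 2.44 and 2.47 in cones, 3.93, 4.20 and 4.48 in Arc cells and 2.62, 2.81 and 3.52 in starburst cells. For both genes the Arc arrays were above every cone and starburst array. The log2 difference between Arc and starburst cells was 1.40 for Syt5 (adjusted p = 0.0147) and 1.22 for Syt12 (adjusted p = 0.0265). Against starburst cells both calls depended on single arrays. Syt5 was not called without the first Arc array or the second or the third starburst array (adjusted p 0.11, 0.053 and 0.0837), nor Syt12 without the second or the third Arc array or the first or second starburst array (0.0755, 0.115, 0.138 and 0.104). Syt5 was lower in cones than in Arc cells by a log2 difference of -1.51 (adjusted p = 0.00328), a call that was lost without the third array of every group (-1.43, adjusted p = 0.0705). All cone arrays of Syt12 were under the median of all values, so its difference of -1.74 between cones and Arc cells (adjusted p = 0.000554) depends on the array background. The other tested synaptotagmins, Syt2, Syt3, Syt6, Syt9 and Syt13, were not called in any comparison of cell types. Of the dim ones, Syt10 read 1.99, 2.20 and 2.30 in cones, 3.12, 2.43 and 4.14 in Arc cells and 2.30, 2.13 and 2.33 in starburst cells. Syt7 stayed at or under 2.60 on all 27 arrays.

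Among the SNAREs and their disassembly machinery, Snap25, the plasma membrane SNARE of fast release, was the 1 gene called of 5 tested. It had 6.88, 6.65 and 6.65 in cones, 8.44, 8.38 and 8.37 in Arc cells and 7.87, 7.90 and 7.80 in starburst cells. The arrays of each group lay close together and the 3 groups did not overlap. The log2 difference was -1.13 ± 0.15 against starburst cells (adjusted p = 1.7e-05) and -1.67 ± 0.15 against Arc cells (adjusted p = 5.54e-08). When the arrays were quantile normalized again, the difference against starburst cells was -0.82 and under the minimum. Stx1a, the syntaxin of conventional synapses, differed by -0.19 between cones and starburst cells (adjusted p = 0.448). Vamp1, the vesicle SNARE synaptobrevin 1, differed by 0.03 (adjusted p = 0.928), and Napb, an adaptor that brings NSF to SNARE complexes, by 0.04 (adjusted p = 0.933). Nsf, the ATPase that takes SNARE complexes apart, had 5.40, 5.52 and 4.42 in cones, against 5.71, 5.38 and 5.49 in starburst cells. The groups overlapped, and the third cone array was the lowest.

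Synapsins tether vesicles in the reserve pool, and photoreceptor ribbon terminals are known to lack synapsins 1 and 2. No synapsin was called in the 3 comparisons of cell types. Syn1 lay near the median of all values on most arrays, with 2.79, 2.45 and 2.67 in cones, 3.23, 3.54 and 3.32 in Arc cells and 2.86, 3.00 and 3.05 in starburst cells. Its log2 difference was -0.73 against Arc cells (adjusted p = 0.000247) and -0.33 against starburst cells (adjusted p = 0.0862). Syn2 had 3.15, 3.27 and 3.21 in cones, 3.75, 4.49 and 3.60 in Arc cells and 3.09, 2.99 and 3.24 in starburst cells. Cones and starburst cells overlapped, and the Arc arrays were above both. Syn3 differed by 0.02 between cones and starburst cells (adjusted p = 0.961).

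SV2 proteins are transporter-like vesicle glycoproteins, and in mouse retina SV2B is known from photoreceptor terminals. Sv2b and Sv2a ran in opposite directions. Sv2b had 3.47, 3.44 and 3.30 in cones, 2.14, 1.91 and 2.50 in Arc cells and 2.56, 2.34 and 2.37 in starburst cells. It passed the filter only through groups that hold cones, where it is high. All cone arrays were above, and all amacrine arrays below, the median of all values, so the size of the difference depends on the array background. It was 1.22 ± 0.24 against Arc cells (adjusted p = 0.000992, called), and 1.06 and not called without the second array of every group (adjusted p = 0.0831). Against starburst cells it was 0.98 ± 0.24 (adjusted p = 0.00786), just under the minimum, and it was 1.01 and called with each array centred on its median. Sv2a had 2.60, 3.29 and 2.90 in cones, 4.12, 4.99 and 4.09 in Arc cells and 3.88, 3.81 and 3.28 in starburst cells. It was lower in cones than in Arc cells by a log2 difference of -1.47 (adjusted p = 9.77e-05), while one cone array overlapped with the starburst arrays (-0.73, adjusted p = 0.0426, not called). Sv2c was not called in any comparison.

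Of the vesicle tetraspans, Syp, synaptophysin, was not called: it had 4.91, 4.99 and 4.33 in cones, 4.45, 4.81 and 4.64 in Arc cells and 4.33, 4.34 and 4.55 in starburst cells, and all groups overlapped. Both synaptogyrins were called. Syngr3 had 4.41, 4.18 and 3.61 in cones, 7.17, 7.01 and 6.88 in Arc cells and 5.60, 6.39 and 5.85 in starburst cells. The groups did not overlap, with a log2 difference of -2.96 ± 0.32 against Arc cells (adjusted p = 8.62e-07) and -1.88 ± 0.32 against starburst cells (adjusted p = 0.000287). Syngr1 had 3.69, 3.45 and 3.12 in cones, 5.49, 4.82 and 5.58 in Arc cells and 3.26, 3.04 and 4.20 in starburst cells. Arc cells were above both other groups, which overlapped, by 1.80 against starburst cells (adjusted p = 0.000831) and by a log2 difference of -1.88 of cones against Arc cells (adjusted p = 0.000211).

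Munc13 proteins, encoded by Unc13a, Unc13b and Unc13c, prime docked vesicles at conventional synapses. Munc13-2, the product of Unc13b, is known from mouse photoreceptor synapses. The 3 paralogs had 3 different patterns. Unc13a had 5.57, 5.50 and 5.61 in cones, 7.64, 8.05 and 7.55 in Arc cells and 7.15, 7.24 and 7.30 in starburst cells. It was lower in cones by a log2 difference of -1.67 ± 0.29 against starburst cells (adjusted p = 0.000359) and -2.19 ± 0.29 against Arc cells (adjusted p = 1.19e-05), with no overlap. Unc13b had 4.12, 3.69 and 3.94 in cones, 3.01, 3.09 and 3.19 in Arc cells and 3.06, 3.12 and 2.94 in starburst cells. All cone arrays were above all amacrine arrays, by 0.88 ± 0.16 against starburst cells (adjusted p = 0.000374) and 0.82 ± 0.16 against Arc cells (adjusted p = 0.000601). Both differences were under the minimum of 1, so Unc13b was not called. Unc13c had 2.72, 2.42 and 2.31 in cones, 4.80, 3.52 and 3.64 in Arc cells and 2.16, 2.28 and 2.43 in starburst cells. It was above the median of all values on the 3 Arc arrays and 1 mixture array, and so passed the filter through the group where it is high. Rims1, an active zone scaffold that binds Rab3 and Munc13, had 3.08, 2.69 and 2.77 in cones, 3.24, 3.16 and 3.23 in Arc cells and 3.68, 3.60 and 3.38 in starburst cells, with a log2 difference of -0.71 between cones and starburst cells (adjusted p = 0.00184, not called).

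The promoters of the SV2 and Munc13 pairs whose members ran in opposite directions between cones and amacrine cells are shown for reference. Each is the 250 bases before an annotated start in RefSeq on GRCm38.p6, printed 5′ to 3′ on the gene's strand. Sv2a is at chr3:96180977-96181226 (plus strand), Sv2b at chr7:75309263-75309512 (minus strand, the first of 4 starts), Unc13a at chr8:71671758-71672007 (minus strand) and Unc13b at chr4:43058703-43058952 (plus strand). Capitals mark TAATCC, the core bound by OTX and CRX homeodomain factors of photoreceptors, or GGGCGG, the GC box, on either strand.
Sv2b: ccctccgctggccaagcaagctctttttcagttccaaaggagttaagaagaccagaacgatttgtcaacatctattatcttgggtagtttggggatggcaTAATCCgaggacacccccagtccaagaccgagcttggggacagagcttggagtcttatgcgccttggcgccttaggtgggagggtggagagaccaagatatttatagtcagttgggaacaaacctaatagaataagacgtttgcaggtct
Sv2a: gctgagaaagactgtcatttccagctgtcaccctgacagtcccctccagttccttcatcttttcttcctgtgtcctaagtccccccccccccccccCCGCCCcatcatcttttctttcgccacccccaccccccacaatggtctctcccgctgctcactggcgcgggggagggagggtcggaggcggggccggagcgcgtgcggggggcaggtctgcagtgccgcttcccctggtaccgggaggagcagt
Unc13b: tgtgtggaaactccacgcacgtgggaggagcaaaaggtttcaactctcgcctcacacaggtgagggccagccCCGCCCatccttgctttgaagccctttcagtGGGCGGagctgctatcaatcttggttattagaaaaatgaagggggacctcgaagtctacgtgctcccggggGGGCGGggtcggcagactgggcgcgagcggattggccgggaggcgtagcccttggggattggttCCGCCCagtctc
Unc13a: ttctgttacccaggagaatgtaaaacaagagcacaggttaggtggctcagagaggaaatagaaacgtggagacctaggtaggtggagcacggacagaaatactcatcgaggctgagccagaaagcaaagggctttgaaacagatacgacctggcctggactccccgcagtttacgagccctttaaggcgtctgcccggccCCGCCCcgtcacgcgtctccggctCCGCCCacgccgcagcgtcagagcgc

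Of these, Sv2b held 1 TAATCC and no GC box, Sv2a 1 GC box, Unc13b 4 and Unc13a 2. TAATCC was present in 3 of 41 promoters of the 30 members that matched the table, both of these Sv2b promoters included, and in 6.25% of all 32851 promoters of this length. The GC box was present in 25 of the 41, and in 32.7% of all. A match to these letters is a description of the window and not a binding site.

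Rab3 proteins are small GTPases of the vesicle surface. Rab3a had 6.21, 5.87 and 5.31 in cones, 7.33, 7.46 and 7.51 in Arc cells and 6.47, 6.65 and 6.58 in starburst cells. The groups did not overlap, and the third cone array was the lowest. The log2 difference was -1.64 ± 0.20 against Arc cells (adjusted p = 3.23e-06, called) and -0.77 ± 0.20 against starburst cells (adjusted p = 0.0104, not called). Rab3c had 2.17, 2.58 and 2.75 in cones, 4.79, 3.20 and 4.41 in Arc cells and 2.98, 3.12 and 2.65 in starburst cells. It was lower in cones than in Arc cells (-1.63, adjusted p = 0.00369), with all cone arrays under the median of all values. The call was lost without the first array of every group, where the difference was -1.14 (adjusted p = 0.0963), and without the third, where it was -1.62 (adjusted p = 0.079). Rab3b and Rph3a, the rabphilin that binds Rab3, were not called.

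Of the endocytic members, the dynamins, GTPases that pinch vesicles from the membrane, were called. Dnm1 had 3.45, 3.73 and 3.71 in cones, 5.63, 5.41 and 5.13 in Arc cells and 4.60, 4.23 and 4.56 in starburst cells. The groups did not overlap, with a log2 difference of -1.76 against Arc cells (adjusted p = 1.56e-07, called) and -0.84 against starburst cells (adjusted p = 0.00166, not called). Dnm3 had 3.98, 4.27 and 3.67 in cones, 5.35, 5.08 and 5.37 in Arc cells and 4.18, 3.99 and 4.43 in starburst cells. Cones and starburst cells overlapped and Arc cells were above both, by 1.07 against starburst cells (adjusted p = 0.000188) and by 0.96, under the minimum, without the second starburst array. Snap91, the clathrin adaptor AP180, was just under the minimum between cones and Arc cells (-0.99, adjusted p = 0.00191) and differed by -0.03 between cones and starburst cells (adjusted p = 0.948). Amph, the dim amphiphysin gene, had 2.76, 2.64 and 2.58 in cones, 2.69, 2.57 and 2.56 in Arc cells and 2.08, 2.69 and 2.16 in starburst cells.

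**Figure D2:**
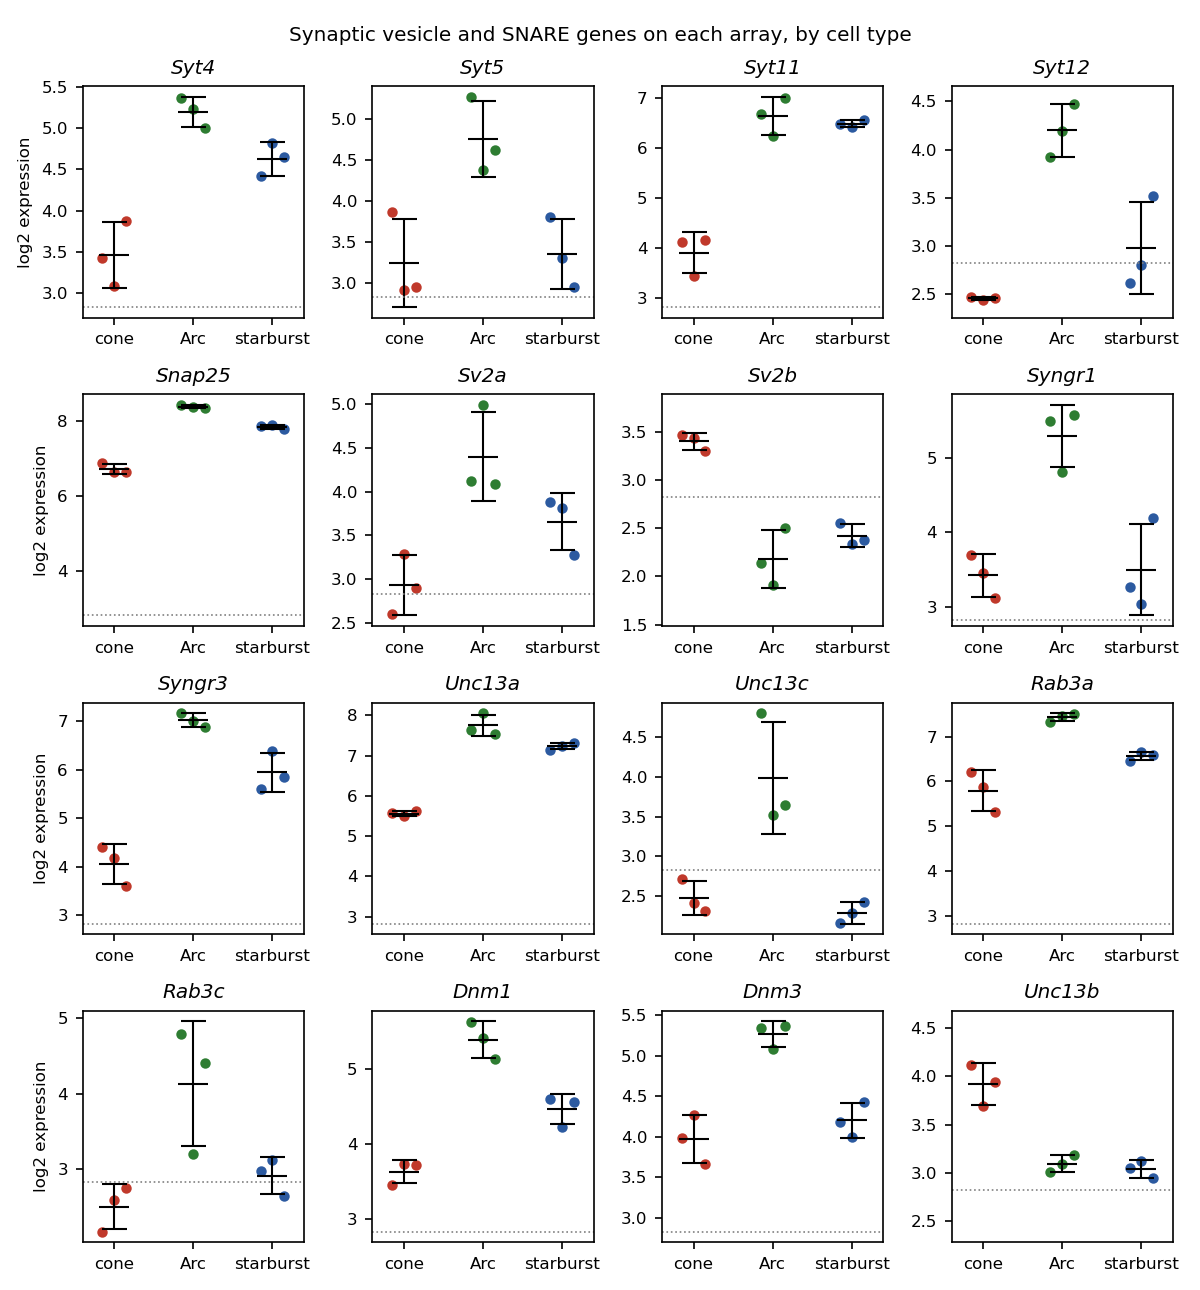
Log2 expression (vertical axis, a scale for each gene) on every array of the cone, Arc and starburst groups for the 15 members called between cell types and for Unc13b. Points are arrays, horizontal bars the group mean with ± 1 SD (n = 3), and dotted lines the median of all values, 2.83. Sv2b and Unc13b are highest in cones, and Syt11, Syngr3, Unc13a and Snap25 are lowest there.

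The titration asked whether levels follow the share of cones. With the change written as a linear slope over the full range of cone share, 5 members were called lower with more cones, the same genes that were called between the pure groups, and 1 higher, Sv2b, while 8.35% of all tested genes were called, 2.55% higher and 5.8% lower. The pure arrays are part of both comparisons. The slope was -2.61 for Syt11 (adjusted p = 4.02e-06), -1.76 for Syngr3 (adjusted p = 0.00016), -1.61 for Unc13a (adjusted p = 0.000142), -1.10 for Syt4 (adjusted p = 0.000154) and -1.07 for Snap25 (adjusted p = 6.64e-06). Quantile normalization again gave slopes of -0.97 for Syt4 and -0.75 for Snap25, and leaving out the second cone array gave -0.95 for Syt4, all under the minimum. Sv2b had a slope of 1.04 (adjusted p = 0.00163), which was 0.98 without the first or without the second array of the group with 150 cones. Unc13b had a slope of 0.80 (adjusted p = 0.000258), under the minimum. Without the third arrays, 6 members were called.

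At intermediate shares the 5 genes were noisy. Snap25, on the linear scale, lay 23.6 ± 26.1%, 28.6 ± 15.1% and 65.2 ± 10.8% of the way from the starburst mean to the cone mean (SD, n = 3) in the mixtures with 25, 50 and 75% cones. Syt11 lay at 49.6 ± 6.42% with 50% cones and 58.8 ± 26.8% with 75% cones. With 25% cones its arrays ran from -159% to 24.2%, because 1 array, at 7.71 on the log2 scale, was above every pure starburst array. Unc13b had group means on the log2 scale of 3.04, 3.29, 3.48, 3.54 and 3.92 from 0 to 200 cones.

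The X mixtures gave a comparison on arrays outside the pure groups. Their cone shares are those of the labels. The mean of the 10 cone markers was 7.01, 6.93 and 4.90 in the X mixture labelled with 75 cones. In the titration mixture labelled with 50 cones it was higher, at 7.61, 7.40 and 7.29. The X mixture with 75 cones thus read less cone signal than its label implies beside the titration. In the X mixture labelled with 183 cones and 17 starburst cells, the mean of the 7 starburst markers was 5.49, 5.43 and 5.69. In the titration mixture labelled with 50 starburst cells it was 5.75, 6.03 and 6.02. How far these X mixtures depart from their labelled shares, and why, was not tested. Between the mixtures with 183 and with 75 cones, 2 members were lower with more cones, Syt11 and Unc13a, and none was higher, while 2.86% of all tested genes were called, 1.25% higher and 1.62% lower. Syt11 had 4.55, 4.83 and 5.19 with 183 cones, against 6.36, 6.43 and 5.79 with 75 cones, a log2 difference of -1.34 (adjusted p = 0.0329). Unc13a had 5.85, 6.37 and 6.99 with 183 cones, against 7.75, 7.42 and 7.65 with 75 cones, a log2 difference of -1.21 (adjusted p = 0.0205). Neither gene overlapped between the mixtures. Both calls rested on single arrays. Without the second array with 183 cones the adjusted p was 0.105 for Syt11 and 0.0754 for Unc13a, so that none was called. Leaving out the first array with 183 cones or the first with 75 cones also ended both calls, as did the second with 75 cones for Syt11 (0.127) and the third for Unc13a (0.0623). Without the third array of every group 1 member, Syt11, was called, and Unc13a had a difference of -1.48 (adjusted p = 0.0513). Snap25 had 7.42, 7.05 and 7.23 with 183 cones, against 7.85, 8.10 and 7.63 with 75 cones (-0.63, adjusted p = 0.0183, not called).

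**Figure D3:**
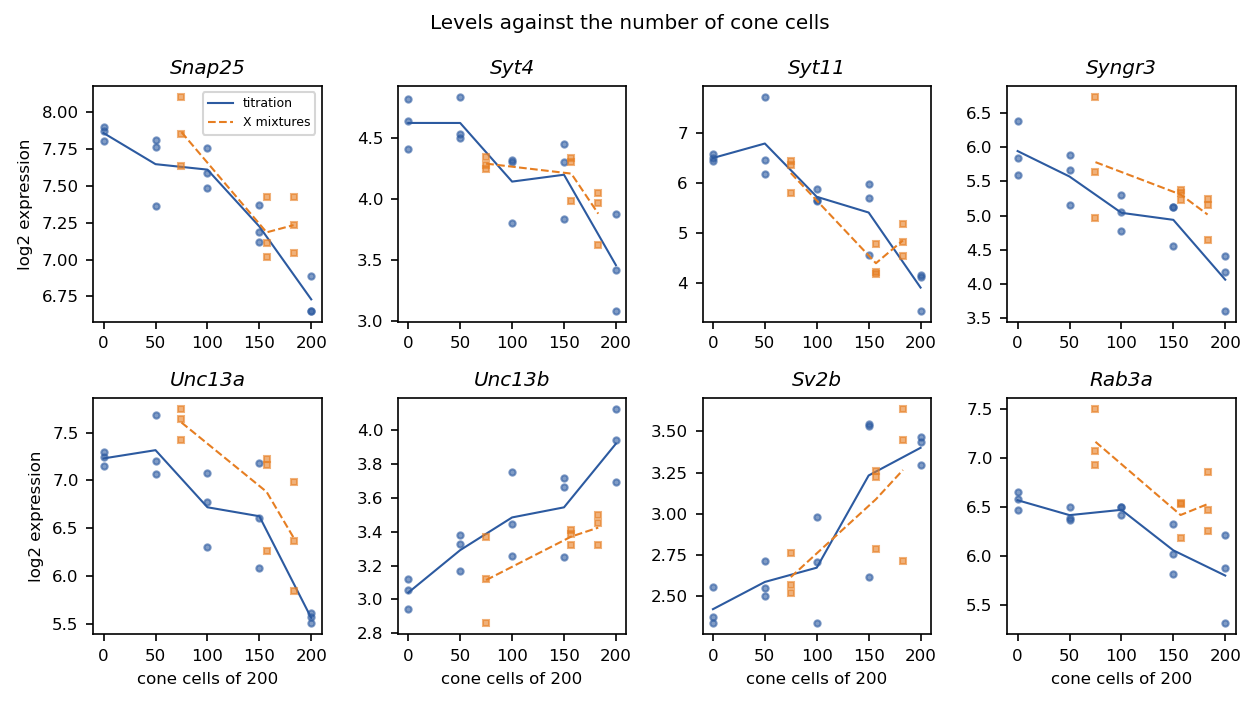
Log2 expression (vertical axis, a scale for each gene) against the number of cone cells of 200 (horizontal axis) for 8 members. Circles are arrays of the titration and squares those of the X mixtures, and lines join group means. Levels of Snap25, Syt4, Syt11, Syngr3 and Unc13a are lower, and those of Unc13b and Sv2b higher, at 200 cones than at 0, and the squares of Rab3a at 75 cones lie above every circle.

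Among the members, Rab3a and Dnm1 were higher in the X mixtures than in the titration. In the mixture with 75 cones Rab3a had 7.07, 7.50 and 6.92, above the highest array of the whole titration, and Dnm1 had 5.05, 4.92 and 4.98, likewise. Levels averaged over the 3 X mixtures were set against the titration, interpolated on the log2 scale to the same labelled cone share. Rab3a was higher by 0.59 (limma adjusted p = 0.0198) and Dnm1 by 0.45 (limma adjusted p = 0.0465). This comparison was added after the values were seen. Interpolating log2 values puts the expected level below that of RNA that adds up on the linear scale. It lies further below where the neighbouring titration groups differ more. By the rule with the minimum difference limma called none of the 35 members and 0.0482% of all tested genes (0.0402% higher and 0.00804% lower), with 9 members at an unadjusted p under 0.05. Higher levels were also read outside the members. Of the 4 further lists below, the cholinergic genes Slc18a3 (1.95, limma adjusted p = 6.12e-09) and Slc10a4 (1.07, adjusted p = 9.24e-06) were called higher in this comparison. Both differ widely between the pure groups. The part of the interpolation in their values was not tested. Whether the X mixtures were sorted from the same pools as the titration is not given in the sources used here.

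Other genes of the release cycle were read from 4 lists. Beside their counts stand the shares of all tested genes called. In cones these were 2.64% higher and 5.79% lower against starburst cells, and 2.51% higher and 7.83% lower against Arc cells. Of 43 tested further SNAREs, SM proteins and fusion regulators, 4 were higher in cones than in starburst cells, the complexins Cplx4 (log2 difference 3.39) and Cplx3 (2.34), the syntaxin Stx3 (1.13) and the calcium sensor Doc2b (1.1). In the same comparison 6 were lower, led by the SNAREs Snap47 (-2.15) and Vamp4 (-1.82), Stxbp6, the SNARE-binding amisyn (-1.72), and Stx4a (-1.56). Against Arc cells 2 were higher and 5 lower in cones. Cplx3 was not called there, and was itself higher in Arc cells than in starburst cells (3.34). The list's median was 0.02 between cones and starburst cells, against -0.04 over all tested genes.

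Of 23 active zone and ribbon genes, 4 were higher in cones than in starburst cells: Cacna1f, the pore subunit of the photoreceptor calcium channel (2.20), Tulp1 (2.19), Unc119, a protein of photoreceptor synapses and lipid transport (2.0), and the channel subunit Cacna2d4 (1.23). Lower were Erc1, an active zone scaffold (-3.33), and Lin7a (-2.13). The same 6 were called in the same directions against Arc cells, where Cask was lower too (-1.01). The medians of this list were -0.01 and 0.05 in these comparisons, beside -0.04 and -0.07 over all tested genes.

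Of 31 endocytic genes, 1 was higher in cones than in starburst cells, Sh3glb1 (1.05), and 4 were lower: the clathrin light chain Clta (-1.42), the dynamin-binding Pacsin1 (-1.35) and the AP2 adaptor subunits Ap2s1 (-1.28) and Ap2m1 (-1.11). Against Arc cells the counts were 1 and 5. The medians of the endocytic list were -0.09 against starburst cells and -0.36 against Arc cells, beside -0.04 and -0.07 over all tested genes. Of 33 genes of vesicle membrane and transmitter loading, none was higher in cones than in starburst cells and 9 were lower. Beside the cholinergic Slc18a3 (-7.50) and Slc10a4 (-5.32), these included Atp6v1e1, a subunit of the proton pump that energises vesicle loading (-1.95), and Synpr, synaptoporin (-1.84). Against Arc cells 11 were lower and 1 was higher, Slc17a7, the vesicular glutamate transporter of photoreceptors (1.09). This list's median was -0.44 against starburst cells and -0.46 against Arc cells, beside -0.04 and -0.07 over all tested genes.

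**Figure D4:**
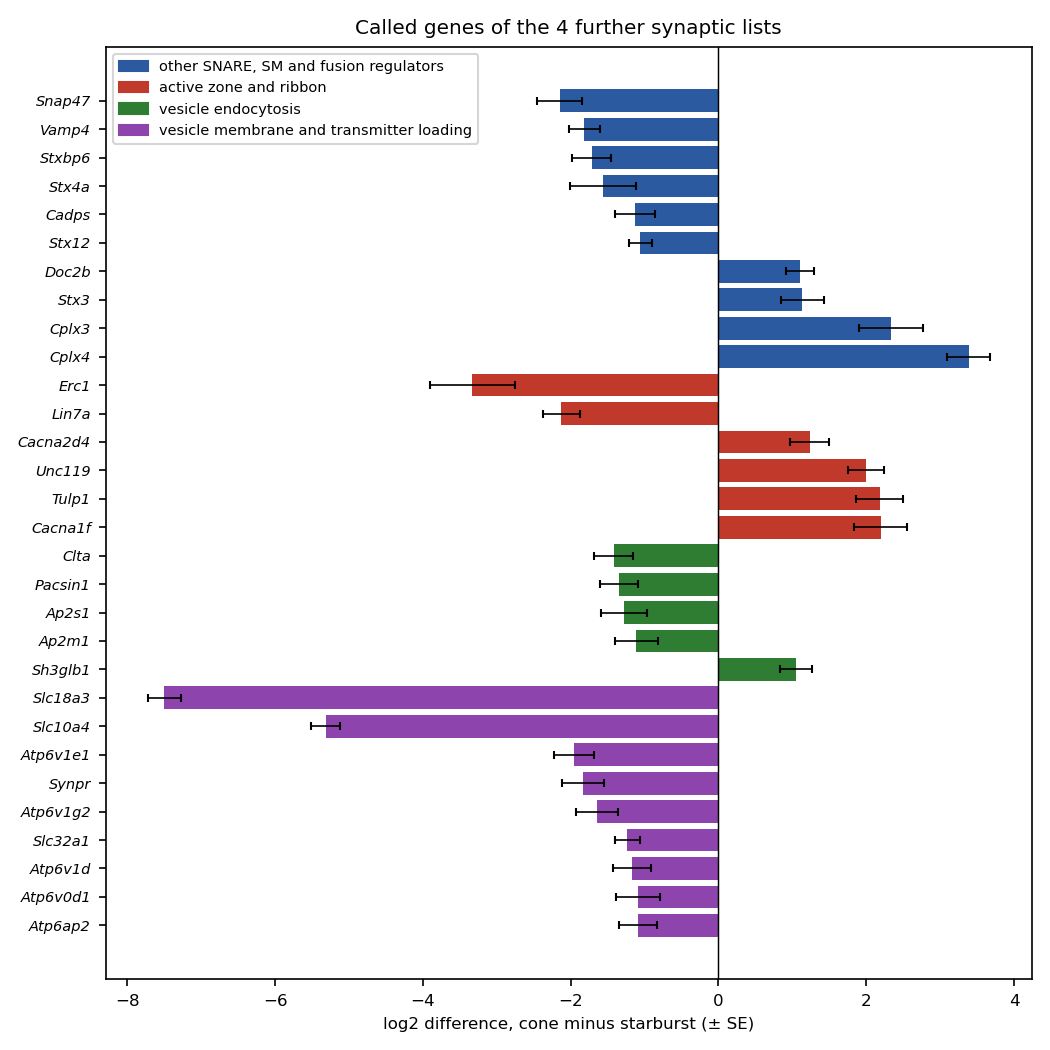
Log2 difference of cones minus starburst cells (horizontal axis, bars from 0 with ± 1 SE from limma) for the genes called in 4 further synaptic lists, coloured by list. Of the 30 bars, Cplx4 reaches furthest to the right (3.39) and Slc18a3 to the left (-7.50), and no gene of vesicle membrane and transmitter loading is to the right of 0.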

How the data were processed

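The authors deposited log2 values made by RMA with the oligo package under R version 2.11.1, per the submitters' processing notes, which also name mm9. RMA corrects background, normalizes arrays to each other and summarises probes, which can compress differences of dim genes. Which arrays were normalized together is not given in the sources used here. Array medians ran from 2.78 to 2.89, and 0 pairs of arrays were identical.

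Of 22347 probe sets, 19446 carried 1 symbol in the probe table, 735 several and 2166 none, and the last 2 kinds were left out. The probe set with the highest mean stood for a gene. Of 19301 genes, 12441 were above 2.83 in at least 3 arrays and were tested with limma 3.58.1 under R 4.3.3 (a mean for each group, then lmFit and eBayes, 27 arrays, 18 residual and 3.42 prior degrees of freedom, two-sided). The fit was tested on simulated data. All members could be named, and of each further list up to 4 called genes per direction; Rab3a and Dnm1 in the X mixtures were singled out after their values were seen. The members, lists and tests were chosen with earlier results of these data known. Arrays have no read depth, and precision is limited by how many arrays a group has.

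The design gives the number of a titration array as that of its sort from pooled retinas, which pairs same-numbered arrays of the 5 titration groups. Deviations from the group means of same-numbered titration arrays had correlations across genes of -0.03 to 0.23 (median 0.02), beside -0.26 to 0.16 (median -0.01) for other numbers. For Arc and X arrays the labels share only a number. Same-numbered arrays of the cone group and the X mixture with 183 cones had correlations of 0.20, 0.13 and 0.30 for numbers 1, 2 and 3. Between the X mixtures with 183 and 75 cones they ran from 0.01 to 0.13. The alternatives were other filters, normalizations, weights, priors and samples in the fit, no minimum difference, the replicate block, and each array left out.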

Additional observations from a re-analysis of the deposited data

How the results depend on the processing

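No call of a member changed sign under any alternative. With no minimum difference, 11 members were called between cones and starburst cells in place of 5 (14.1% of all tested genes), 22 between cones and Arc cells in place of 15 (17.7%), 10 between Arc and starburst cells in place of 5 (5.75%), 12 for the titration slope in place of 6 (16.9%), 4 between the X mixtures in place of 2 (4.19%), and 2 for the X mixtures against the titration in place of 0 (0.37%). Quantile normalization again left 3 between Arc and starburst cells, without Syt12 and Dnm3 (0.92). With only the compared groups in the fit, none was called between the X mixtures, with adjusted p of 0.0762 for Syt11 and 0.135 for Unc13a; fewer arrays enter that fit. Leaving out single arrays, or 1 replicate number in all groups (added after the values were seen), gave 4 to 6 calls between cones and starburst cells, 14 to 17 between cones and Arc cells, 2 to 7 between Arc and starburst cells, 3 to 7 for the slope and 0 to 2 between the X mixtures. The 2 came without the first arrays of all groups, where Syngr1 had an adjusted p of 0.0928, and the 3 without the second arrays, where Snap25 (-0.99), Syt4 (-0.92) and Sv2b (0.91) dropped out. The replicate block gave 5, 15, 6, 6, 2 and 0 calls in the order of the report; its 1 change was Syngr3, called between Arc and starburst cells (1.08). Apart from the setting with no minimum difference, these counts are given without the share of all tested genes and describe the members only. Across the 64 pairs of member and comparison followed singly, 47 calls were lost and 60 gained over all settings. Of 146 further pairs, 60 changed sign without being called. The causes were not tested. Signal over background limits the tested members Sv2b, Unc13c, Syt12, Rab3c, Syn1, Syn3, Sv2c, Rab3b, Syt2 and Syt9, whose arrays all lie below the median value in 1 or more cell types.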
